A study of Mus musculus with 2 samples.

Results

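The genes described here belong to the families of enzymes that add acetyl or methyl groups to histones, called writers, and that remove them, called erasers. Assignment is by family, and some members, such as the mitochondrial sirtuins, act mainly on other proteins. They were chosen by symbol: a gene was a member where its symbol began with Hdac, Sirt, Kat, Kdm, Kmt, Setd, Prmt or Ezh followed by a digit and the annotation gave it a protein-coding transcript. Of 55536 annotated genes, 21901 had a protein-coding transcript and 70 of these were members. The 34 writers comprised 8 acetyltransferases (Kat), 18 lysine methyltransferases (Kmt, Setd and Ezh) and 8 arginine methyltransferases (Prmt). The 36 erasers comprised 11 zinc-dependent histone deacetylases (HDACs), 7 sirtuins and 18 demethylases (Kdm). A further 5 symbols matched the pattern without a protein-coding transcript, Kat2b-ps, Kat6b-ps1, Kat6b-ps2, Kdm4dl and Kdm6bos, and were left out.

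RNA came from the nucleoplasmic fraction of primary macrophages grown from bone marrow of C57BL/6J mice. All cells had received Lipid A, the Toll-like receptor 4 ligand within bacterial lipopolysaccharide, at 100 ng/ml during 12 h, had spent 12 h after its wash-out, and were collected at 0 min of the next Lipid A dose. There was 1 group of 2 libraries, biological replicates 1 and 2, made from total RNA after removal of ribosomal RNA. No unstimulated or later group was analysed here, so levels and ratios within these libraries are given with no test and no p-value, and an SD over n = 2 is only a rough guide to spread. Replicate 1 started from 1 µg of RNA and replicate 2 from 500 ng, so that starting amount and replicate cannot be told apart. Both biosamples carry the same donor record, and sex and age were not collected.

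Acetylation of histone lysines by acetyltransferases loosens the contact of histones with DNA and is read by bromodomain proteins, and deacetylases and the NAD-dependent sirtuins reverse it. Methylation carries no charge change, and its effect depends on the residue: methylated H3K4 marks promoters and enhancers, H3K36 the bodies of transcribed genes, and H3K27 genes silenced by Polycomb repressive complex 2 (PRC2). In macrophages these enzymes are known for setting which inflammatory genes can be switched on again after a first contact with lipopolysaccharide, the state called endotoxin tolerance.

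The macrophage label held: all 10 macrophage markers examined, led by Lyz2, had a TPM of 1 or more in each library, called detected below. TPM is a level per transcript length, scaled to the same total in every library. Of 34 markers of other cell types, 1 reached that level in both libraries, the endothelial gene Kdr at 15.7 and 7.34 TPM, and 9 had no count in either. Depth was 22907877 expected counts for replicate 1 and 18612405 for replicate 2, summed over annotated genes, and the members held 0.516% of them in each library. Fewer expressing cells and less RNA per cell cannot be told apart in such bulk RNA.

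Because nuclear RNA holds transcripts that are not fully spliced, the data bear on introns as well as levels, and 5 introns are shown for that reason. They come from annotated retained-intron transcripts, models that hold intronic sequence relative to other transcripts of the gene, not always a whole intron. Shown are the 5 members with the highest share of TPM on such transcripts among those where the transcript holds whole an intron of up to 300 bases between coding exons. Each is from GENCODE transcript sequence on mm10, written 5′ to 3′ on the gene's strand, with capitals for the splice-site dinucleotides GT and AG at its ends. They lie at chr11:120620884-120620956 (Sirt7, minus strand), chr11:102195895-102195951 (Hdac5, minus), chr6:71620211-71620443 (Kdm3a, minus), chr15:89124254-89124531 (Hdac10, minus) and chr7:4742729-4742946 (Kmt5c, plus).
Sirt7 intron: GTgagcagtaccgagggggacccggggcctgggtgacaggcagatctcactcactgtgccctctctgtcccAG
Hdac5 intron: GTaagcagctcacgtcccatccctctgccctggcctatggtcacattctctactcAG
Kdm3a intron: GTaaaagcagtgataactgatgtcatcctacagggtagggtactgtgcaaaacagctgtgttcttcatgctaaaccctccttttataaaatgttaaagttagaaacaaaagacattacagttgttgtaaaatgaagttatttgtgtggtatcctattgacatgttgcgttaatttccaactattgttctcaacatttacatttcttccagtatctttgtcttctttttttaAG
Hdac10 intron: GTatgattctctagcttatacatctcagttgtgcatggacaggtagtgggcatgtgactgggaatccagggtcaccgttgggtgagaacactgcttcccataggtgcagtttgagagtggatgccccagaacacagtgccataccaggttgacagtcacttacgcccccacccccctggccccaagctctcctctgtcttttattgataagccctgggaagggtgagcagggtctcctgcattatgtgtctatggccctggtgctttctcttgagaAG
Kmt5c intron: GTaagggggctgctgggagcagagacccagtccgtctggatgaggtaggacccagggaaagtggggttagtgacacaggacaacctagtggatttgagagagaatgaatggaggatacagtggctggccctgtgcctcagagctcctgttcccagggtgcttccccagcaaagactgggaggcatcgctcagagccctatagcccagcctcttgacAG

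These introns measured 73, 57, 233, 278 and 218 bases in the order shown, and their GC content was 65.8%, 56.1%, 33.0%, 52.9% and 57.8%. Where several transcripts hold the same intron, the values are those of the transcript with the highest mean TPM. That of the Sirt7 intron carried 16.9 and 15.0 TPM in replicates 1 and 2, from 831 and 627 counts. Those of the other 4 introns were lower, from 0.830 TPM (Hdac10, replicate 2) to 2.74 TPM (Hdac5, replicate 1). Across all members, 71 distinct introns spliced by a protein-coding transcript were held whole by a retained-intron transcript, and 69 of them began with GT and ended with AG. They belonged to 30 members, and 55 of the members' 179 retained-intron transcripts held at least 1, with a median length of 278 bases.

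Nearly all members were detected in the nuclear RNA. Of 70 members 65 were detected, against 44.7% of protein-coding genes, and 34 had a TPM of 10 or more in each library, against 19.8%. The median member had 10.4 and 11.0 TPM in replicates 1 and 2. On the log2(TPM + 0.1) scale the members' median level was 3.43 ± 0.059 (SD, n = 2), while that of all protein-coding genes was -0.86 and that of the detected protein-coding genes was 3.22. Among 69 neighbouring members in the order of mean TPM, 12 pairs had libraries that did not overlap and 57 overlapped, so the order is loose outside its ends.

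**Figure D1:**
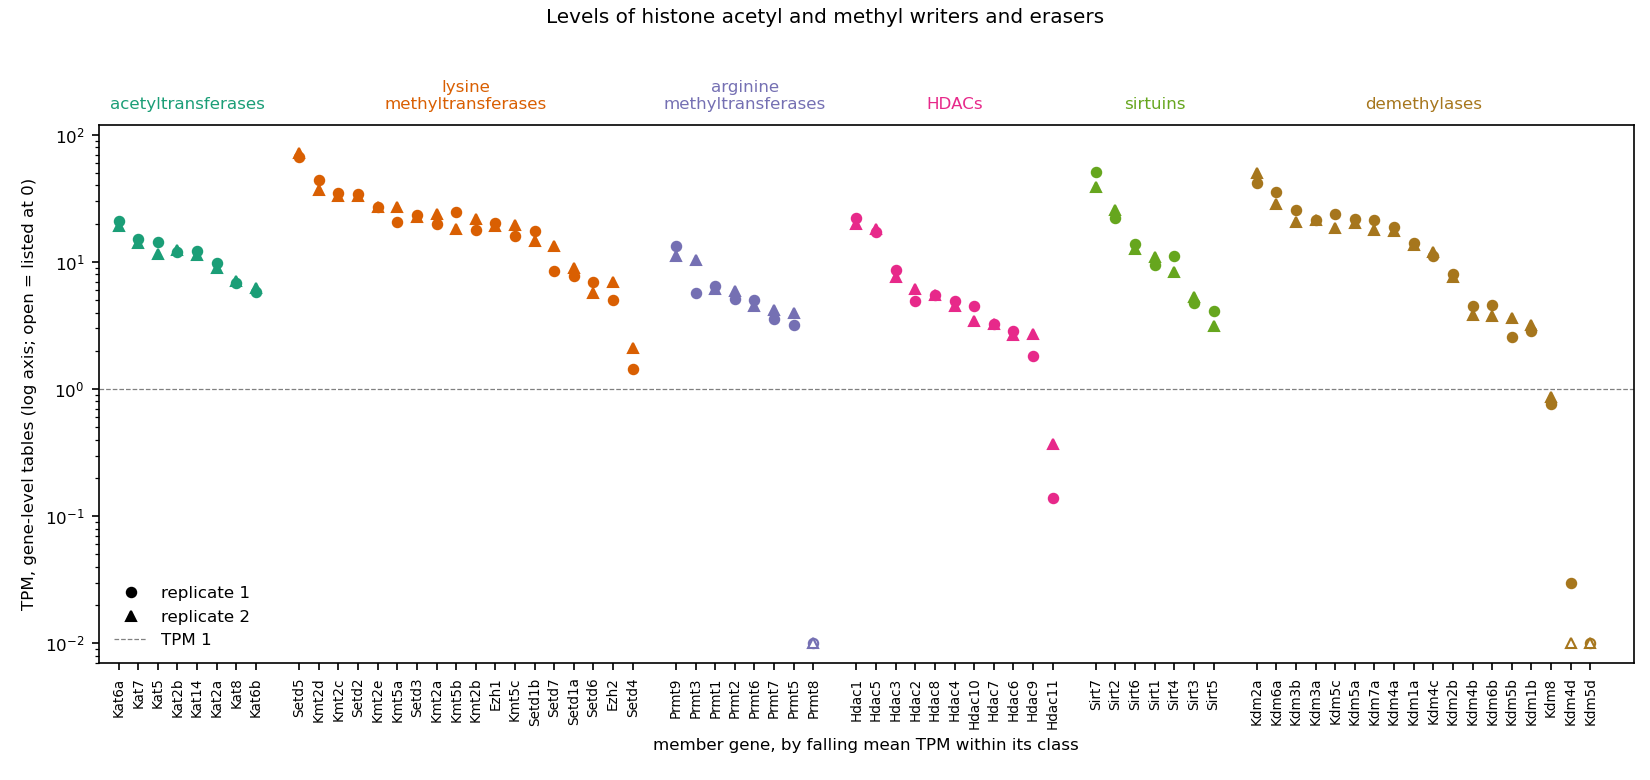
TPM from the gene-level tables (log axis) for each of the 70 members, grouped by enzyme class and ordered by mean TPM, with replicate 1 as circles and replicate 2 as triangles; open symbols are genes listed at 0, drawn at 0.01. Setd5 sits highest at 67.1 and 72.3 TPM, and 5 members lie under the dashed line at a TPM of 1 in both libraries.

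Writers stood higher than erasers at the median. Their median level was 3.64 on the log2(TPM + 0.1) scale and that of erasers 3.02, a difference of 0.61 in replicate 1 and 0.64 in replicate 2. The classes differed more among themselves than writers and erasers did. Lysine methyltransferases had the highest median level, 4.35 ± 0.031 (SD, n = 2), and demethylases, acetyltransferases and sirtuins followed at 3.67, 3.58 and 3.48. Arginine methyltransferases at 2.38 and HDACs at 2.27 were lowest, so that each side held a high and a low class. Counting only detected members narrowed the difference between writers and erasers to 0.38.

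All 8 acetyltransferases were detected, within a narrow range. Kat6a, a MYST-family acetyltransferase, was highest at 21.2 and 19.3 TPM in replicates 1 and 2. Kat7, which acetylates histones H3 and H4 in complexes with BRPF or JADE scaffolds, had 15.1 and 14.2 TPM. Kat5, the catalytic subunit of the NuA4/TIP60 complex, had 14.4 and 11.7 TPM. Kat6b, the close relative of Kat6a, was lowest at 5.84 and 6.28 TPM. In both libraries Kat6a exceeded Kat6b, with a mean log2 ratio of 1.74 ± 0.17 (SD, n = 2).

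The remaining acetyltransferases lay between these. Kat2a and Kat2b, the alternative catalytic subunits of the SAGA and ATAC coactivator complexes, had 9.79 and 8.98 TPM and 12.0 and 12.4 TPM. Kat2b was higher in both libraries, with a log2 ratio of Kat2a over Kat2b of -0.38 ± 0.12 (SD, n = 2). Kat8, which acetylates H4K16, had 6.79 and 7.07 TPM and stood below Kat5 by 0.90 ± 0.26 log2 units (SD, n = 2).

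Among lysine methyltransferases 18 of 18 were detected and 13 had a TPM of 10 or more in each library. Setd5, a SET-domain protein whose own methyltransferase activity is debated, was the highest of all members at 67.1 and 72.3 TPM in replicates 1 and 2. Next came Kmt2d and Kmt2c, the enzymes that monomethylate H3K4 at enhancers, with 44.1 and 36.7 TPM for Kmt2d and 34.6 and 33.1 TPM for Kmt2c. Kmt2d was the higher of the pair in both libraries by a small margin, 0.25 ± 0.14 log2 units (SD, n = 2). Setd4 was lowest in the class at 1.44 and 2.11 TPM, from 59 and 34 counts.

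Among the promoter H3K4 enzymes, the Kmt2 pair was closely matched and the Setd1 pair was not. Kmt2a and Kmt2b, which act at promoters, had 19.8 and 23.9 TPM and 18.0 and 21.9 TPM, a log2 ratio of 0.13 ± 0.011 (SD, n = 2). Setd1b exceeded Setd1a in both libraries, with 17.6 and 14.5 TPM against 7.69 and 8.93 TPM. In the second quantification described below the pair was not ordered, with a mean log2 ratio of Setd1a over Setd1b of 0.05 against -0.95 in the gene-level tables.

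Ezh1 was the higher of the alternative catalytic subunits of PRC2. Ezh1 had 20.1 and 19.3 TPM in replicates 1 and 2, and Ezh2, the form known from dividing cells, had 5.06 and 6.98 TPM. Their mean log2 ratio was 1.73 ± 0.37 (SD, n = 2), and the libraries of the genes did not overlap. For H4K20, Kmt5b and Kmt5c, which add the second and the third methyl group, were not ordered: Kmt5b had 24.9 and 18.0 TPM and Kmt5c 16.0 and 19.4 TPM.

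Arginine methyltransferases were low, with 7 of 8 detected and 1 at a TPM of 10 or more in each library. Prmt9 was highest at 13.4 and 11.2 TPM. Prmt3, which acts on a ribosomal protein, had 5.74 and 10.4 TPM in replicates 1 and 2, libraries that differ more than those of its neighbours in this class. Prmt1, the main source of asymmetric dimethylarginine, had 6.46 and 6.18 TPM. Prmt8, a membrane-anchored relative of Prmt1 known from brain, had no expected count in either library, where 3 counts would have been 0.0415 and 0.0488 TPM in replicates 1 and 2. In the second quantification described below, Prmt8 had 0.114 and 0.242 TPM.

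HDACs were the lowest class by median, with 10 of 11 detected and 2 at a TPM of 10 or more in each library. Hdac1, a catalytic subunit of the SIN3, NuRD and CoREST corepressor complexes, was highest at 22.1 and 20.0 TPM. Hdac2, its partner in these complexes, had 4.97 and 6.10 TPM, so that Hdac1 exceeded it by 1.93 ± 0.31 log2 units (SD, n = 2). Hdac3, the enzyme of the NCoR and SMRT corepressors, had 8.61 and 7.63 TPM and exceeded Hdac8, at 5.54 and 5.46 TPM, in both libraries.

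The class IIa deacetylases, which shuttle between nucleus and cytoplasm, were led by Hdac5 at 17.2 and 18.2 TPM. Hdac4 had 4.91 and 4.51 TPM, Hdac7 3.27 and 3.28 TPM and Hdac9 1.81 and 2.72 TPM. Hdac5 exceeded Hdac7 by 2.43 ± 0.054 log2 units (SD, n = 2), and Hdac4 exceeded Hdac9 by 1.09 ± 0.50. Hdac11, the only class IV deacetylase, was lowest with 10 and 11.1 counts, or 0.140 and 0.370 TPM.

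All 7 sirtuins were detected. Sirt7, the nucleolar sirtuin that removes acetyl groups from H3K18, was highest at 51.1 and 39.0 TPM in replicates 1 and 2. Sirt2 had 22.3 and 25.6 TPM and Sirt6, which deacetylates H3K9, had 13.8 and 12.7 TPM. Sirt1, at 9.40 and 10.9 TPM, was below Sirt2 by 1.24 ± 0.008 log2 units (SD, n = 2). Of the mitochondrial sirtuins, Sirt3 had 4.75 and 5.27 TPM and Sirt5 was lowest at 4.08 and 3.15 TPM. The values of Sirt7 carry a counting limit, since Sirt7 overlaps Mafg on the same strand and Mafg had 27.1 and 29.8 TPM.

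Demethylases ranged from among the highest levels to none, with 15 of 18 detected and 10 at a TPM of 10 or more in each library. Kdm2a, which removes methyl groups from H3K36, was highest at 41.9 and 50.03 TPM in replicates 1 and 2. Kdm6a, the X-linked H3K27 demethylase, had 35.5 and 28.6 TPM, and Kdm3b, an H3K9 demethylase, had 25.5 and 20.8 TPM. Kdm8 at 0.770 and 0.860 TPM and Kdm4d, with 2 counts in replicate 1 and 0 in replicate 2, did not reach a TPM of 1 in either library, nor did Kdm5d. These 3 demethylases with Hdac11 and Prmt8 were the 5 members under a TPM of 1 in both, a state that 52.9% of protein-coding genes shared.

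In the gene-level tables the 3 widest gaps among the 20 pairs with a ratio lay between related demethylases. Kdm6b, the H3K27 demethylase known to be induced by lipopolysaccharide in macrophages, had 4.60 and 3.74 TPM, so that Kdm6a exceeded it by 2.94 ± 0.011 log2 units (SD, n = 2). Kdm5a, at 21.7 and 20.3 TPM, exceeded Kdm5b, at 2.55 and 3.61 TPM, by 2.79 ± 0.42. Kdm2a exceeded Kdm2b, at 8.09 and 7.67 TPM, by 2.54 ± 0.24. Kdm1a, the H3K4 demethylase of the CoREST complex, had 14.0 and 13.6 TPM against 2.86 and 3.22 TPM for Kdm1b. The closest demethylase pairs were Kdm4a, at 19.0 and 17.4 TPM, with Kdm4c, at 11.1 and 12.1 TPM, and Kdm3a, at 21.3 and 21.2 TPM, with Kdm3b, which were not ordered.

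Of 22 pairs of related enzymes, 20 gave a ratio and 18 of these were ordered, which means that both libraries gave the same sign and the mean log2 ratio exceeded its SD. A small margin could meet this rule, as for Kmt2a over Kmt2b at 0.13 log2 units. How often other pairs of genes would be ordered was not counted. The 2 pairs with no ratio were Kdm5c with Kdm5d and Prmt1 with Prmt8, since the latter gene of each is listed at 0. In the second quantification the mean of 2 pairs had the opposite sign. For Setd1a over Setd1b the libraries were split there, at -0.12 and 0.21, so that the pair was not ordered. For Sirt3 and Sirt5 both libraries had the opposite sign: Sirt3 was higher in the gene-level tables by 0.48 ± 0.37 log2 units (SD, n = 2) and lower in the second quantification by a mean log2 ratio of -1.28.

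**Figure D2:**
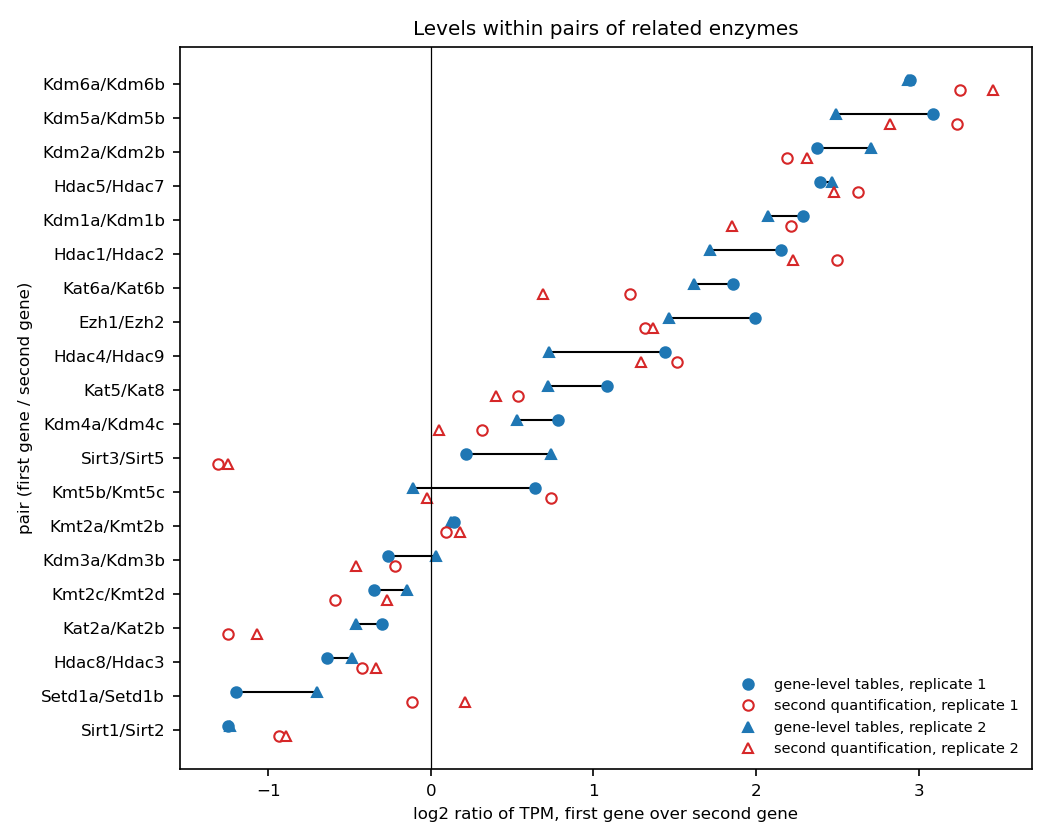
Log2 ratio of TPM between the genes of each of 20 pairs, with filled blue symbols for the gene-level tables, joined by a line, open red symbols for the second quantification, circles for replicate 1 and triangles for replicate 2. Kdm6a over Kdm6b is the largest at 2.94, and the red symbols of Sirt3/Sirt5 lie on the other side of 0 from the blue ones.

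Some members that act on the same residue were also summed, with the residue lists chosen after the levels were known. The lists are not complete: Setd7, at 8.55 and 13.3 TPM, was not counted for H3K4, nor Kdm7a, at 21.5 and 17.8 TPM, for H3K27. The 6 listed H3K4 methyltransferases, Kmt2a to Kmt2d, Setd1a and Setd1b, summed to 142 and 139 TPM in replicates 1 and 2. The 6 H3K4 demethylases of the Kdm1 and Kdm5 families summed to 65.0 and 59.2 TPM, lower in both libraries, with a log2 ratio of writers over erasers of 1.18 ± 0.074 (SD, n = 2). For H3K27 the order was the other way: Ezh1 and Ezh2 summed to 25.2 and 26.2 TPM and Kdm6a and Kdm6b to 40.1 and 32.3 TPM, a log2 ratio of -0.49 ± 0.26. Both ratios had the same sign in both libraries of both quantifications, and a level of RNA says nothing of enzyme activity.

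A considerable part of the members' RNA was assigned to retained-intron transcripts. Such transcripts were annotated for 54 members and made up 179 of the members' 594 transcripts. Over the 52 of these that were detected, the median share of a gene's TPM on them was 33.6% ± 0.276 (SD, n = 2), beside 29.9% ± 1.02 over 6144 protein-coding genes meeting the same conditions. More than 50% of TPM in both libraries lay on retained-intron transcripts in 8 of the 52 members, and in 15.4% of those protein-coding genes, so the members' count is near the background. Of the 52, 29 were above the median of the protein-coding genes in both libraries, 16 below it in both and 7 had a library on either side. The same split was not counted over the protein-coding genes, so it is not read as a trait of the members. Taken over expected counts in place of TPM, an alternative added after the data were seen, the median was 19.9% for the members and 17.8% for protein-coding genes. Only 55 of the 179 retained-intron transcripts held whole an intron that a protein-coding transcript removes. A share thus does not stand for whole introns kept.

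Erasers had a higher share than writers at the median. The median was 36.8% ± 1.497 over 27 erasers and 31.2% ± 1.66 over 25 writers (SD, n = 2). A share over 50% in both libraries was found in 6 of the 27 erasers and 2 of the 25 writers, beside 15.4% of protein-coding genes. With so few genes, neither count is read as a trait of its side. Sirtuins had the highest class median at 43.4%, with 3 of 7 over 50% in both libraries, followed by demethylases at 38.8% and HDACs at 37.1%. Lysine methyltransferases had a median of 33.8%, acetyltransferases of 27.03% and arginine methyltransferases of 24.8%. The sirtuin median was 37.9% in replicate 1 and 48.9% in replicate 2, a wider gap than that between sirtuins and either other eraser class. Erasers stayed above writers at the median over expected counts, at 23.6% and 17.3%, and in the second quantification, at 48.6% and 36.2%. Annotation differed the same way: all erasers together had 101 retained-intron and 134 protein-coding transcripts, and all writers 78 and 133. The part of annotation in the difference of shares was not tested.

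**Figure D3:**
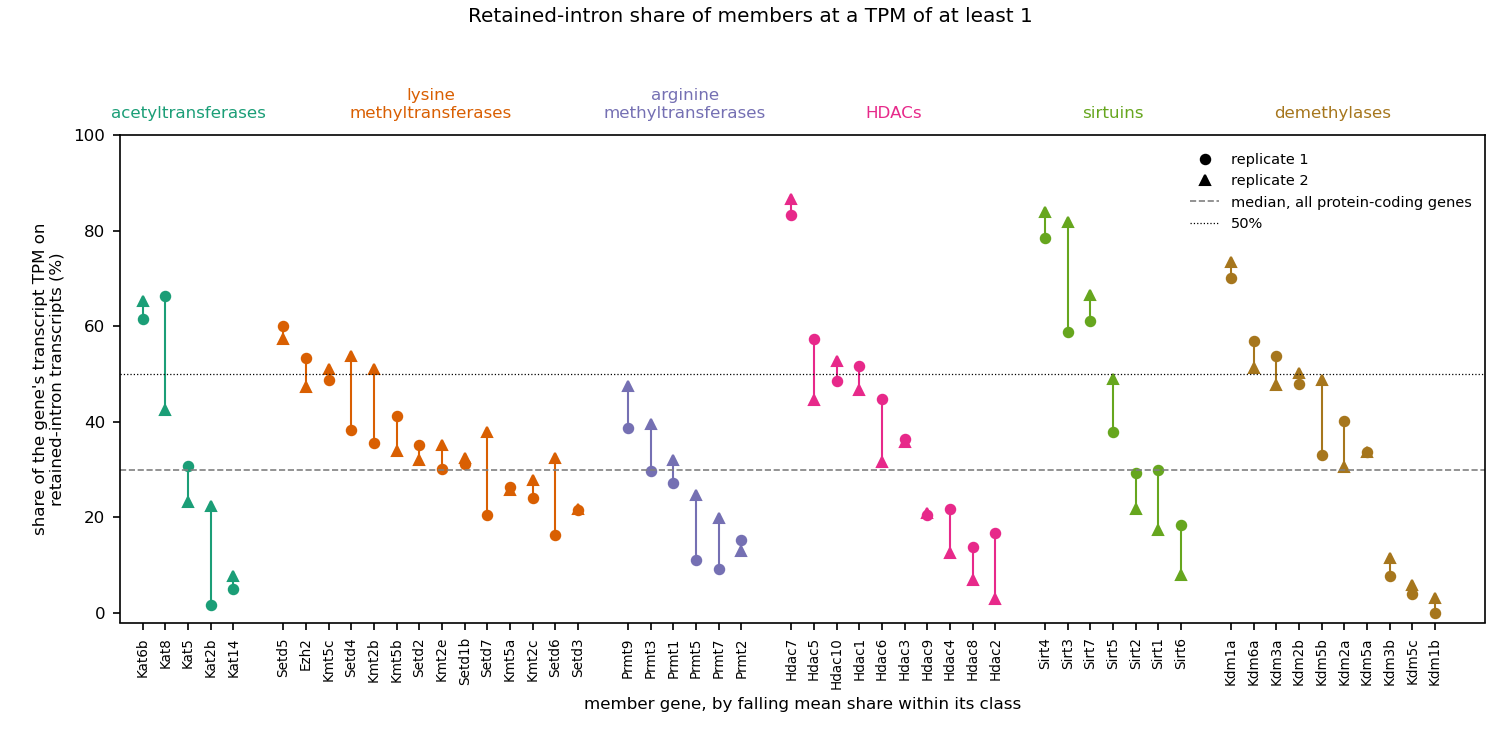
Share of each gene's transcript TPM on annotated retained-intron transcripts (percent) for the 52 members with such a transcript that were detected, by class, with circles for replicate 1 and triangles for replicate 2 joined by a line; the dashed line is the median over 6144 protein-coding genes. Hdac7 and Sirt4 lie highest, at means of 84.9% and 81.2%, and long vertical lines show members such as Kat8 and Sirt3 whose libraries differ.

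Hdac7 had the highest share, 83.2% in replicate 1 and 86.5% in replicate 2, with most of it on 1 retained-intron transcript at 2.15 and 2.63 TPM. Sirt4, a mitochondrial sirtuin, followed with 78.5% and 83.9% and Kdm1a with 70.0% and 73.4%. Sirt3 had 58.8% and 81.8% and Sirt7 61.2% and 66.4%. The other members over 50% in both libraries were Kat6b, Setd5 and Kdm6a. Over expected counts 6 of 52 members were over 50% in both libraries, against 12.8% of protein-coding genes: Hdac7, Sirt4, Sirt3 and Sirt7 remained, Kdm1a (37.2% and 43.3%), Kat6b, Setd5 and Kdm6a did not, and Hdac10 and Setd4 joined. For Setd5, the member with the highest level, 59.9% and 57.3% of TPM lay on retained-intron transcripts, 1 of which carried 18.9 and 18.1 TPM.

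At the other end, Kdm1b had 0% and 3.11% on its single retained-intron transcript, from 0 and 1.59 counts. Kdm5c had the next lowest share, 3.93% and 5.77%. Within pairs the shares could lie far apart, as for Kdm1a and Kdm1b, while Hdac5, at 57.4% and 44.6%, and Hdac7 were both above the background median. Of the 5 members whose introns are printed above, none but Sirt7 was over 50% in both libraries: Hdac5, Kdm3a, Hdac10 and Kmt5c each crossed it in 1 library.

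Shares of single genes varied between the libraries. The share differed by more than 10 percentage points between the libraries for 16 of 52 members, with a median difference of 5.84 and a largest difference of 23.9 points, at Kat8. It was higher in replicate 2 for 31 members and lower for 21. These counts were not made over the protein-coding genes, whose median share was 29.2% in replicate 1 and 30.7% in replicate 2. Over all the members' transcripts together, 60.3% ± 0.523 of summed TPM lay on protein-coding transcripts, 30.5% ± 0.0701 on retained-intron transcripts, 6.33% ± 0.109 on processed transcripts and 2.94% ± 0.485 on transcripts marked for nonsense-mediated decay (SD, n = 2). For all protein-coding genes 17.3% ± 1.09 of summed TPM lay on retained-intron transcripts. Unlike the medians above, these sums include genes with no such transcript. Annotation also differed, with 179 retained-intron beside 267 protein-coding transcripts for the members and 21421 beside 58797 for all protein-coding genes. Within the members the retained-intron part was 27.01% for writers, with 78 such transcripts annotated, and 34.7% for erasers, with 101.

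Some of these genes share their place with others, and the use of strand in counting is not given in the sources used here. An annotated gene overlapped 40 of 70 members, on the opposite strand for 34 and on the same strand for 16, and it was protein-coding for 14. The same was not counted over all protein-coding genes, so whether these counts are particular to the members is not known. Hdac7 overlaps Slc48a1 on the opposite strand, which had 23.3 and 27.9 TPM, more than Hdac7 itself. Sirt3 overlaps Ric8a, at 21.2 and 17.7 TPM, and Psmd13, at 20.5 and 22.3 TPM, and Kdm1a overlaps Luzp1, at 13.2 and 10.4 TPM, all on the opposite strand. The part of these neighbours in the retained-intron shares was not tested.

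Between the libraries, the counts of members that differed were near those of protein-coding genes. None of the 64 members with a mean count of at least 100 had an absolute log2 ratio of 1 or more, and 1.99% of all genes and 1.71% of protein-coding genes at that count did, so a count of 0 is near the background. The median log2 ratio of replicate 2 over replicate 1 was -0.001 over 66 members past the filter on low counts. Its SD over these members was 0.25, and over the protein-coding genes past the filter 0.43. The 95% counting interval excluded 0 for 33 of the 66 members, of which 17 were higher and 16 lower in replicate 2, and for 50.2% of protein-coding genes past the filter, so the members' count is at the background. Below 0 lay the ratio of 33 of the 66 members and of 50.6% of protein-coding genes past the filter.

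**Figure D4:**
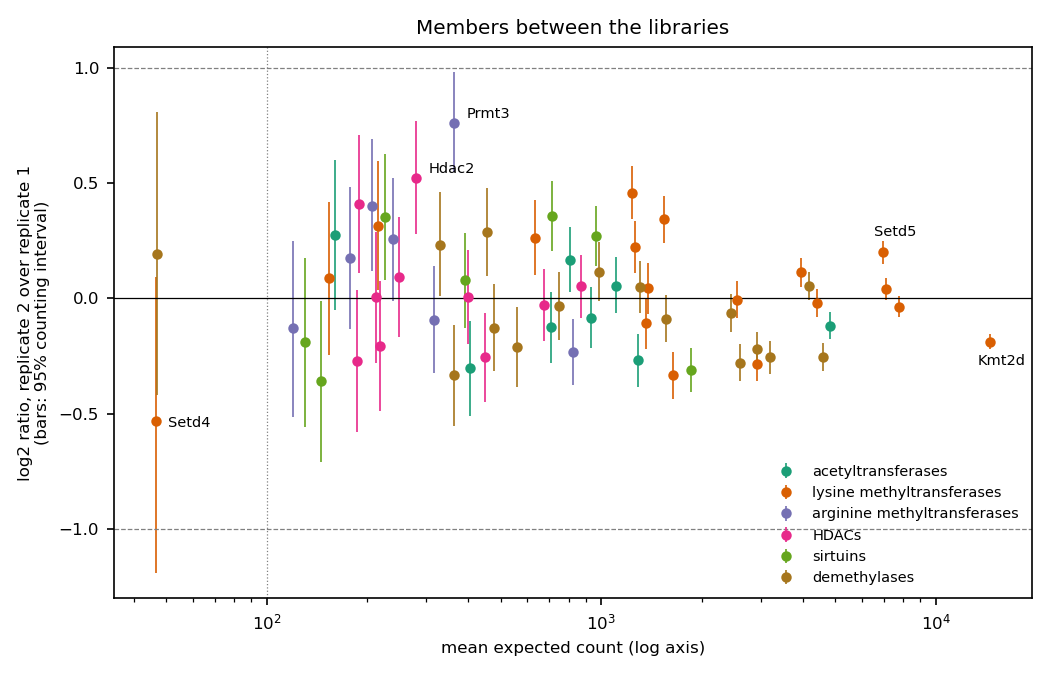
Log2 ratio of replicate 2 over replicate 1 against the mean expected count (log axis) for the 66 members past the filter on low counts, coloured by class, with bars for the 95% counting interval and dashed lines at -1 and 1. Every point with a mean count of at least 100 lies between the dashed lines, Prmt3 nearest to them at 0.76.

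Prmt3 had the largest ratio among these, 0.76 with a counting interval of 0.55 to 0.98, from 299 and 425 counts. Hdac2 followed at 0.52, from 254 and 306 counts, and Kmt5a, which monomethylates H4K20, at 0.46. Kmt2d, the member with the most counts, 16776 and 12330, had -0.19 with an interval of -0.22 to -0.16. For 14 of the 66 members TPM moved the other way from the scaled counts, as for Setd4, whose TPM was higher and whose scaled count was lower in replicate 2. How often this happened over all protein-coding genes was not counted.

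The second quantification, made straight from the reads, gave the members lower TPM. Of 70 members, 57 were lower and 13 higher in it, with a median ratio of mean TPM of 0.708, beside 0.653 over protein-coding genes. Of 66 members with a mean TPM of 1 or more in either table, 4 were lower by 2-fold or more, against 13.1% of protein-coding genes, and 2 were higher by 2-fold or more, against 9.74%. The 4 were Prmt6, an enzyme that dimethylates histone H3 arginine, at 1.87 and 2.31 TPM against 5.0 and 4.47 TPM in the gene-level tables, and Kat2a, Sirt7 and Hdac3.

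**Figure D5:**
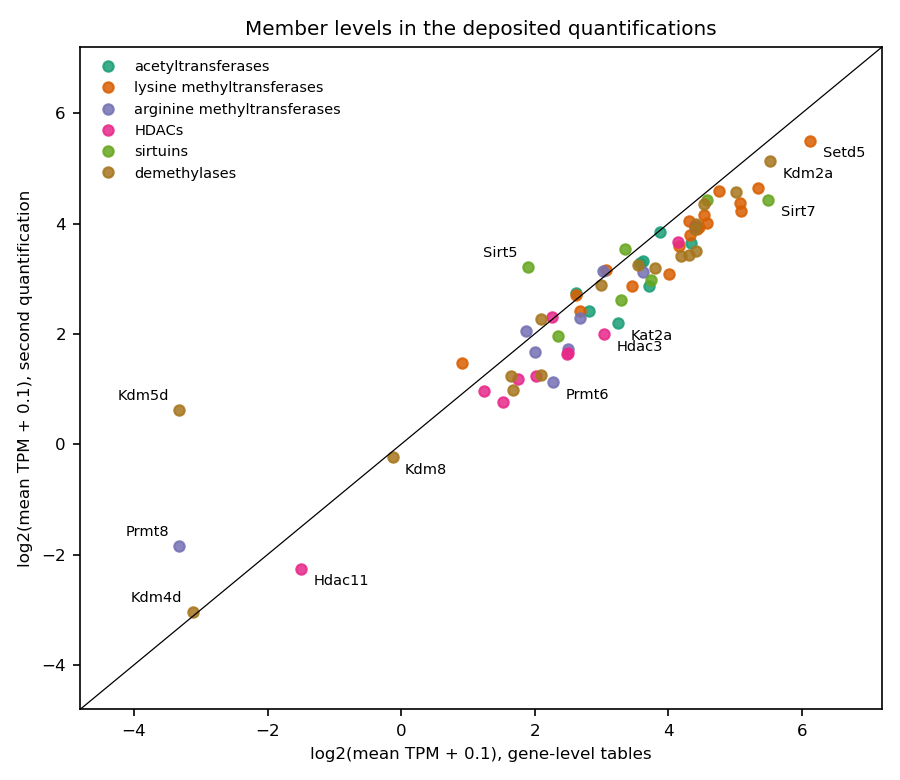
Mean level of each member as log2(mean TPM + 0.1) in the gene-level tables (horizontal axis) and in the second quantification (vertical axis), coloured by class, with the line of equality. Most members lie under the line, and Kdm5d, Prmt8 and Sirt5 lie farthest above it.

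Sirt5, the mitochondrial desuccinylase, was 7.43 and 10.9 TPM in the second quantification against 4.08 and 3.15 TPM in the gene-level tables. Most of the difference lay on 1 protein-coding transcript, with 66.1 and 67.8 expected counts in the gene-level run and 980 and 1198 estimated counts in the other. The level of Sirt5 and its rank as the lowest sirtuin are therefore uncertain.

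Kdm5d, the Y-linked H3K4 demethylase, was listed at 0 in both libraries of the gene-level tables and had 1.07 and 1.80 TPM in the second quantification, from 444 and 605 estimated counts. The 0 was common on the Y chromosome, where 182 of 183 protein-coding genes had no expected count in either library. Of the 183, only 11 had more than 3 estimated counts in both libraries of the second quantification. There Uty had 3.21 and 4.02 TPM and Ddx3y 0.321 and 0.365 TPM, while Zfy1 had 0 in both. In the gene-level tables Kdm5c, the X-linked partner of Kdm5d, had 23.9 and 18.5 TPM, and Xist, the RNA of the inactive X chromosome, had 158 and 164 TPM. A 0 for Kdm5d is thus shared with nearly the whole Y chromosome, and the part of reads from X-linked relatives in its estimated counts was not tested.

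Writers and erasers outside the symbol rule, and the partners of the members, were described by lists chosen with knowledge of these data. All 7 other acetyltransferases were detected, from Ep300, the enhancer coactivator, at 53.4 and 52.5 TPM to Gtf3c4 at 4.62 and 4.84 TPM. Of 17 other lysine methyltransferases 16 were, with Nsd3 highest at 81.2 and 66.4 TPM and Setmar lowest at 0.700 and 0.610 TPM. Carm1, an arginine methyltransferase, had 8.70 and 7.59 TPM. Of 8 other demethylases 6 were, led by Jmjd1c, an H3K9 demethylase relative, at 72.9 and 74.5 TPM, while Uty, the Y-linked relative of Kdm6a, was listed at 0. Ep300 and Jmjd1c each stood above every member of their class chosen by symbol in both libraries, while Nsd3 overlapped Setd5.

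Subunits of the complexes that hold the members were mostly detected, beside 44.7% of all protein-coding genes. Among PRC2 partners 8 of 9 were detected, from Eed, a core subunit, at 32.3 and 26.5 TPM to Phf19 at 0.420 and 0.540 TPM. Of the COMPASS partners, the core and complex-specific subunits of H3K4 methyltransferase complexes, 12 of 13 were, from Ncoa6 at 24.9 and 35.7 TPM to Pagr1a at 3.33 and 0.610 TPM. Deacetylase complex partners numbered 23 of 24, from Ncor1, the corepressor that activates Hdac3, at 84.1 and 91.7 TPM to Rcor2 at 0.320 and 0.160 TPM.

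Acetyltransferase complex partners were all detected, 28 of 28, from Supt20 at 41.2 and 46.9 TPM to Jade3 at 1.33 and 1.66 TPM. Of 15 acetyl-lysine readers 14 were, from Brd2, a BET bromodomain protein, at 101 and 105 TPM to the germ-cell relative Brdt at 0.310 and 0.280 TPM. On the log2(TPM + 0.1) scale the medians were 3.87 for other acetyltransferases, 3.84 for other lysine methyltransferases, 2.84 for other demethylases, 3.75 for PRC2, 3.30 for COMPASS, 3.61 for deacetylase and 2.86 for acetyltransferase complex partners, and 4.14 for readers. All lay above the median of -0.86 over all protein-coding genes, as did the members' median of 3.43. Beside the median of 3.22 over detected protein-coding genes, other demethylases and acetyltransferase complex partners were lower. COMPASS partners were close to that median, and the other lists named here and the members were higher.

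Promoter letters were compared in the RefSeq table of GRCm38.p6, which gives 250 bases before and 50 after a start, where 79 promoters of 58 members were found. The median number of CG dinucleotides in the 300 bases was 21 over the members' promoters and 14 over 20148 promoters of protein-coding genes. On either strand, the GC box GGGCGG was found in 60.8% of the members' promoters and 47.7% of all, the ETS core CCGGAA in 25.3% and 19.1%, the CCAAT box CCAAT in 41.8% and 37.8%, and the TATA box TATAAA in 5.06% and 12.2%. Several promoters of 1 gene overlap, and a match describes letters only. The comparison is with all protein-coding genes, detected or not, and promoters of detected genes were not set apart.

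At Prmt8 a promoter dense in CG stood beside a gene with no expected count. It is shown because Prmt8 had 0 expected counts and 44 CG dinucleotides, against the members' median of 21, and it was picked after its values were seen. In the second quantification Prmt8 had 0.114 and 0.242 TPM in replicates 1 and 2, so the 0 is uncertain. The promoter lies at chr6:127769106-127769405 on the minus strand, and the capitals mark CG.
Prmt8 promoter: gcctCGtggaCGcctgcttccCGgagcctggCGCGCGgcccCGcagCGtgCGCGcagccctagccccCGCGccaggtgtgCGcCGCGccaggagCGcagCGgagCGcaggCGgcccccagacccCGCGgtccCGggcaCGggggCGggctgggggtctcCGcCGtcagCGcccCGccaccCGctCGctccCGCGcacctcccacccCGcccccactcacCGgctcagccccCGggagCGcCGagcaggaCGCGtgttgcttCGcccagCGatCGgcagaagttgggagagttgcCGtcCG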

How the data were processed

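Gene-level tables hold expected counts and TPM per gene, and transcript-level tables the same per transcript, as deposited by the authors. A further transcript table, also deposited, gives estimated counts and TPM and is called the second quantification. Notes deposited with the tables say that the first kind came from transcriptome alignments and the second kind directly from reads, on mm10 with GENCODE M21. Programs, versions and strand use were not given in the sources used here, so values of antisense, overlapping and near-identical genes are uncertain.

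Symbols, types and positions were matched by gene ID to GENCODE. Entries naming no annotated gene, with 1.01% and 0.336% of expected counts, were left out. TPM of the second quantification was summed per gene. Medians used log2(TPM + 0.1). Retained-intron shares were taken over transcript TPM. Counts were rounded and scaled by TMM (edgeR 4.0.16, R 4.3.3, prior count 0.5) on genes past filterByExpr. A gene was apart between libraries at an absolute log2 ratio of 1 or more and a mean count of at least 100. The calculation of ratios was checked on simulated counts. Intervals are exact Clopper-Pearson 95% intervals and, like the limit of 3 counts, cover counting error only. DESeq2 1.42.0, other thresholds, pseudocounts and filters, the second quantification and each library alone were alternatives. Other computing used scipy 1.17.1, pandas 2.3.3 and numpy 2.4.6 under Python 3.11.15.

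Members and lists were chosen with earlier results of these data known. Named by rule were the 3 highest and the lowest member of each class, those under a TPM of 1, the 5 highest and 2 lowest retained-intron shares, those differing 2-fold between quantifications, both genes of each pair, and the highest and lowest of each other list. Ezhip and Mideas had no match. RefSeq promoters were found for 58 of 70 members.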

Additional observations from a re-analysis of the deposited data

Results flagged for a closer look

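Both results here are members at 0 expected counts in the gene-level tables of both libraries that had a level in the second quantification, which the comparisons of levels did not use. Kdm5d had a mean of 1.43 TPM there, at 1.07 and 1.80 TPM in replicates 1 and 2. Prmt8 had a mean of 0.178 TPM there, from 23.8 and 41.0 estimated counts, above the 0.0415 and 0.0488 TPM that 3 expected counts would have given.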

How the results depend on the processing

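No paired analysis was possible because there was 1 group. Leaving out each library in turn gave 65 members at a TPM of at least 1, a writer minus eraser difference of 0.61 to 0.64 and a median retained-intron share of 33.4% to 33.8%. The count of 65 was 66 at a TPM of 0.5, 63 at 2 and 66 in the second quantification, where Kdm5d joined. The writer minus eraser difference was 0.58 with a pseudocount of 1, 0.38 over detected members and 0.42 in the second quantification. The median retained-intron share was 43.0% in the second quantification and 19.9% over expected counts. With no mean count minimum 1 member was apart, Kdm4d, which had 2 counts and 0. The median log2 ratio between libraries was 0.04 (0.043) with library totals, -0.02 (-0.015) with no filter and -0.03 (-0.027) in the second quantification. Mean ratios with the other sign in the second quantification were Sirt3 over Sirt5, at -1.28, and Setd1a over Setd1b, at 0.05 (0.047), where replicate 1 kept its sign. Of 20 pairs, 13 moved by more than their SD there with the sign kept, and 60 of 70 member levels moved. The causes were not tested. Depth limits members under about 100 counts, and 2 libraries limit every spread.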
